A study of Homo sapiens with 18 samples.

Results

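A set of 10 cell surface and progenitor markers is described here on arrays of EpCAM+ cells from 2 hepatocellular carcinoma (HCC) lines. The genes are EPCAM, PROM1, ANPEP, CD44, CD24, THY1, KRT19, KRT7, SOX9 and ICAM1, 10 of the 19720 genes named on the array, taken as every probe that maps to one of them by RefSeq accession or gene symbol. Each of the 10 genes has 1 probe, printed on 10 spots for ICAM1 and on 2 spots for the others. The arrays hold RNA of Huh1 and Huh7, both established lines, in 6 groups of 3 arrays: control, disulfiram (DSF, 0.1 µM) and 5-fluorouracil (5-FU, 1 µM) in each line, with 48 h of treatment. Flow sorting on EpCAM protein isolated the cells of every group, controls included, and dead cells were gated out with propidium iodide. The sources do not settle whether sorting came before or after treatment. Copper chloride is listed beside DSF in the methods and the treatment of the controls is not given, so that copper and DSF cannot be told apart. Since EpCAM protein chose the cells, the EPCAM transcript is no check of the label. Each line is a single culture source and stands for no patient group.

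Tumor-initiating cells are the fraction of a tumor that can seed a new one, and in HCC they are commonly recognized by surface proteins shared with fetal liver progenitors. EpCAM is a homophilic adhesion molecule of epithelia and a Wnt target. CD133, the product of PROM1, is a pentaspan protein of membrane protrusions, and CD13, the product of ANPEP, is an aminopeptidase of the cell surface. CD44 is the hyaluronan receptor, CD24 a small glycosylated anchor protein, CD90 (THY1) a GPI-anchored protein of mesenchymal and some stem cells, and ICAM1 the ligand of leukocyte integrins. KRT19 and KRT7 are keratins of bile duct cells, and SOX9 is a transcription factor of the biliary and progenitor lineage.

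For 5 of the 10 genes the RefSeq promoter table (GRCh38.p14) holds a sequence: ANPEP, CD24, CD44, ICAM1 and PROM1, with 11 start sites among them. The windows of ANPEP, CD44 and ICAM1 are shown because these genes hold the largest DSF differences among the surface proteins. For CD44 this rests on Huh7 alone, where its signals lay near background. Each is the 250 bases before a start site, 5′ to 3′ along the gene. Capitals mark a match on either strand to any of 5 motifs, the TATA box as TATAAA, the AP-1 site as TGANTCA, the core of the metal response element as TGCNCNC, the core of the antioxidant response element as TGANNNNGC, and the TCF/LEF site as CTTTGAT. They lie at chr15:89814853-89815102 (ANPEP, minus strand, outer start), chr15:89806629-89806878 (ANPEP, minus strand, inner start), chr11:35138921-35139170 (CD44, plus strand) and chr19:10270870-10271119 (ICAM1, plus strand).
ANPEP outer start: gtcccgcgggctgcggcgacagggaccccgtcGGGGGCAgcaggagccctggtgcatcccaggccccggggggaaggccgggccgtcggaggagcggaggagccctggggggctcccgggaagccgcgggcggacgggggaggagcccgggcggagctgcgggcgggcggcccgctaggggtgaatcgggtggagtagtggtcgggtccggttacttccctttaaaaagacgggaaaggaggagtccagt
ANPEP inner start: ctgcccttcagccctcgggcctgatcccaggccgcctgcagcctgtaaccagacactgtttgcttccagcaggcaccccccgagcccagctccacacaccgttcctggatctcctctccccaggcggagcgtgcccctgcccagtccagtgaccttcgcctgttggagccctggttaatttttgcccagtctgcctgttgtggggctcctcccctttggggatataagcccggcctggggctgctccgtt
CD44: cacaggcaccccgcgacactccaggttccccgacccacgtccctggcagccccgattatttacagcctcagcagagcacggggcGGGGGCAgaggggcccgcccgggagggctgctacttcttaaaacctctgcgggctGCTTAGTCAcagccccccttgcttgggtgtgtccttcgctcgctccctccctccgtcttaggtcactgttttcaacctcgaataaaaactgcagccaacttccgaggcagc
ICAM1: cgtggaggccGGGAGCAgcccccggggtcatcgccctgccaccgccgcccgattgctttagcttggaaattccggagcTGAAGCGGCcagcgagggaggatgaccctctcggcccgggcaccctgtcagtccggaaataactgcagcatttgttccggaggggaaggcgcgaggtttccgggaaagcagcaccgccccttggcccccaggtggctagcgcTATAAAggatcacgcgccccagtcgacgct
The outer ANPEP window held 26 CpG and the inner one 9, against a median of 11 over all 35116 windows of this length. ICAM1 had 23 CpG and CD44 had 15. TATAAA was found in the ICAM1 window, and in 10.7% of all windows. The metal response element core occurred once each in the outer ANPEP, CD44 and ICAM1 windows, and 49.1% of all windows hold it. The antioxidant core occurred once in CD44 and once in ICAM1, against 35.2% of all windows. AP-1 (6.57% of all windows) and TCF/LEF (2.26%) matched none of the 4 windows printed. Among the 4 PROM1 starts, the window at chr4:16076119-16076368 held 5 CpG, 1 AP-1 match and 1 TCF/LEF match, and the other 3 held 13 to 26 CpG. The 3 CD24 windows held 17 to 27 CpG.

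The levels below are log2 of the processed spot signal minus the log2 75th percentile of the same array, so that 0 is the 75th percentile. A level may be compared between arrays for 1 probe and not between probes. Per array, 59.9% to 71.1% of probes lay well above background by the scanner software. Of the 8 hepatocyte-lineage markers checked (ALB, APOA1, APOB, TTR, TF, SERPINA1, FGB and HNF4A), 8 were well above background on all 18 arrays. Of 6 stromal markers 0 were so, and HBB (blood) and KDR (endothelium) were on no array. The stromal list summed to 0.247 to 0.345 times the 75th percentile in Huh7 5-FU and to 0.104 to 0.122 in Huh7 control, with DCN at -3.14 against -6.46 in group means. The part of these low signals in the marker levels was not tested.

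Several arrays of a group differed from each other by little more than duplicate spots on 1 array, and this bears on every p given below. For 4889 probes with duplicate spots, the median difference between 2 arrays of a group was divided by that between duplicate spots on 1 array. Of 18 pairs of arrays 9 had ratios of 1.06 to 1.40 and the other 9 had ratios of 2.20 to 3.48. The near-identical arrays were Huh1 control 2 and 3, Huh1 5-FU 2 and 3, Huh7 DSF 2 and 3, and all 3 arrays each of Huh1 DSF and Huh7 control. The 3 Huh7 5-FU arrays all differed from each other. The study describes independent experiments, and whether the close arrays were separate cultures was not tested. Each comparison is therefore given from both of 2 fits. One fit by limma takes all 18 arrays, with 12 residual degrees of freedom. The other averages near-identical arrays into 11 units, with 5 residual degrees of freedom. A gene is said to have risen or fallen, or to have passed, when its adjusted p in the fit of 18 arrays is under 0.05 over 29894 probes, and the calls that also passed with averaging are named each time.

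**Figure D1:**
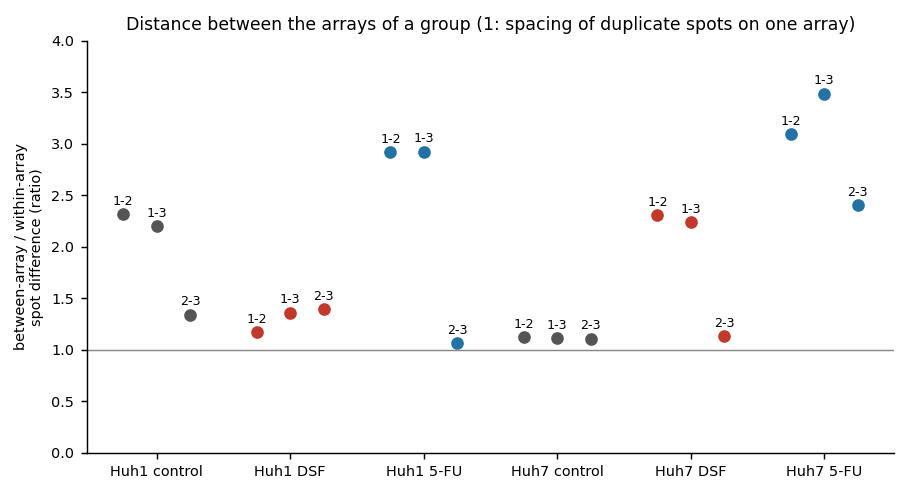
Spot difference between 2 arrays of a group divided by that between duplicate spots within an array (y axis, ratio), for each of the 6 groups (x axis); each point is 1 pair of arrays and carries its 2 array numbers. Of the 18 pairs 9 lie between 1.06 and 1.40 and 9 between 2.20 and 3.48, with none between.

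The arrays also lay on 3 slides. Slide 1 held the Huh1 arrays apart from DSF 3, slide 2 held that array with the Huh7 control and 5-FU arrays and Huh7 DSF 1, and slide 3 held Huh7 DSF 2 and 3 alone. With the slide as a block, DSF in Huh7 therefore rests on DSF array 1 against its controls.

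The first comparison asked how the 2 lines differ before treatment. Huh7 control cells had higher levels of EPCAM, PROM1, KRT19, SOX9 and ICAM1, and Huh1 control cells had higher levels of CD44, KRT7, ANPEP and CD24. CD44, PROM1 and SOX9 differed by more than the other 6 genes tested, also with normexp background. Among the 9 genes tested, 5 were higher and 4 lower in Huh7, where 34.5% of all probes were called higher and 36.2% lower. With near-identical arrays averaged, 8 of the 9 passed, CD24 being the exception (adjusted p = 0.245), and 49.3% of all probes did. All 3 Huh1 control arrays lay on slide 1 and all 3 Huh7 control arrays on slide 2, so among the control arrays line and slide cannot be told apart.

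PROM1 was at -4.65, -5.09 and -4.76 on the Huh1 control arrays and at 1.72, 1.71 and 1.69 on those of Huh7. The difference was 6.54 ± 0.16 (SE) on the log2 scale, or 92.9-fold (adjusted p = 6.99e-14), and 4.93 on the log2 scale with a normexp background correction. SOX9 was at -4.29, -3.89 and -4.00 in Huh1 control and at 1.09, 1.13 and 1.12 in Huh7 control. All Huh7 arrays lay above all Huh1 arrays for both genes, drug-treated arrays included. The SOX9 difference was 5.17 ± 0.15 (adjusted p = 3.91e-13), and 4.07 with normexp background.

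CD44 ran the other way, at 0.25, 0.74 and 0.76 in Huh1 control against -6.14, -6.20 and -6.28 in Huh7 control. Only Huh7 control array 1 of those 3 was well above background for CD44. Huh7 was lower by 6.79 ± 0.18 on the log2 scale (adjusted p = 1.82e-13), and by 4.33 with normexp background. In processed signal, the Huh7 control arrays read 15.9, 15.1 and 14.7 and the Huh1 control arrays 1350, 1927 and 2016. THY1 was well above background on 0 of 18 arrays, with levels of -8.88 to -6.79, and was not tested.

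EPCAM, the sorting marker, was at 2.71, 2.57 and 2.58 in Huh1 control and at 5.47, 5.48 and 5.53 in Huh7 control. Its transcript was thus 7.32-fold higher in Huh7 among cells sorted as positive in both lines (2.87 ± 0.17 on the log2 scale, adjusted p = 1.24e-09). KRT19 read 4.04, 2.39 and 2.29 in Huh1 control, where array 1 stood far above the other 2, and 5.80, 5.78 and 5.92 in Huh7 control. KRT7 had the reverse order, at 5.46, 4.82 and 4.66 in Huh1 control against 2.35, 2.29 and 2.15 in Huh7 control. Neither keratin overlapped between the control groups. The differences were 2.93 ± 0.40 for KRT19 (adjusted p = 1.14e-05) and -2.72 ± 0.24 for KRT7 (adjusted p = 8.84e-08).

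ICAM1 was 3.75-fold higher in Huh7 (1.91 ± 0.17 on the log2 scale, adjusted p = 1.39e-07). ANPEP was 2.83-fold lower in Huh7, at -0.03, -0.11 and -0.08 against 1.49, 1.40 and 1.38 (adjusted p = 8.11e-06). The smallest difference was that of CD24, which was near 5.24 ± 0.01 (SD, n = 3) in Huh7 control and 5.64 ± 0.14 in Huh1 control (adjusted p = 0.00456). The CD24 call also ended in the fit with slide as a block (adjusted p = 0.163), with spike-in scaling (0.117) and with quantile normalization.

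**Figure D2:**
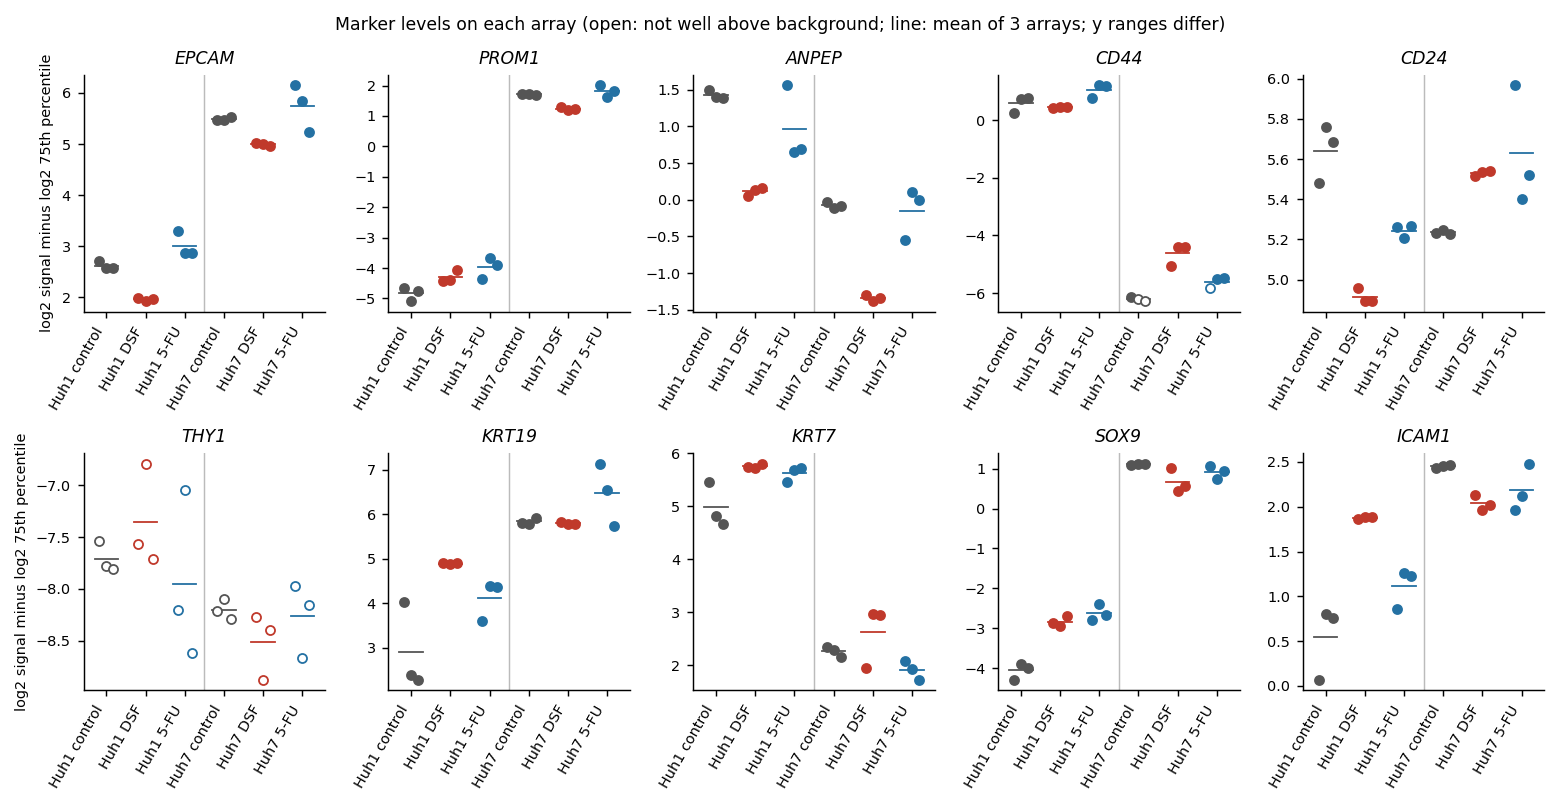
Level of each of the 10 genes (y axis, log2 of the signal minus the log2 75th percentile of the array; ranges differ between panels) on every array of the 6 groups (x axis). Points are arrays in the order 1, 2 and 3, open points are arrays where the probe was not well above background, and lines are means of 3 arrays. CD44 and the PROM1 and SOX9 panels split by line, ANPEP and EPCAM sit lowest within each line after DSF, and all 18 THY1 points are open.

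The next comparison asked what 48 h of DSF did to these transcripts in EpCAM+ Huh1 cells. ANPEP, CD24 and EPCAM fell, while KRT19, ICAM1, SOX9, KRT7 and PROM1 rose. KRT19 rose 3.96-fold, ICAM1 2.52-fold and SOX9 2.34-fold, and ANPEP fell 2.48-fold. Of 9 genes tested, 5 were higher and 3 lower, where 23.9% of all probes were called higher and 20.3% lower. The median of the 9 log2 differences was 0.53, against 0.00 over all probes tested. With near-identical arrays averaged, which leaves 1 DSF unit against 2 control units, SOX9 and ICAM1 passed (2 of 9, with 10.2% of all probes called).

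The fall of ANPEP went from control values of 1.49, 1.40 and 1.38 to 0.06, 0.13 and 0.16. The DSF arrays lay well under every control array. The log2 difference was -1.31 ± 0.20 (adjusted p = 9.70e-05), and the adjusted p was 0.0715 with averaging. CD24 went from 5.48, 5.76 and 5.68 to 4.96, 4.90 and 4.89, without overlap. Its log2 difference was -0.73 ± 0.11 (adjusted p = 1.07e-04, and 0.117 with averaging). EPCAM went from 2.71, 2.57 and 2.58 to 1.99, 1.93 and 1.97. The groups again did not overlap. The log2 difference was -0.66 ± 0.17 (adjusted p = 0.00633), and the call was lost with averaging (0.278) and with spike-in scaling (0.0816).

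ICAM1 rose from 0.07, 0.81 and 0.76 to 1.87, 1.89 and 1.88, by 1.33 ± 0.17 on the log2 scale (adjusted p = 2.62e-05, and 0.0378 with averaging). SOX9 rose from -4.29, -3.89 and -4.00 to -2.86, -2.96 and -2.69, by 1.23 ± 0.15 (adjusted p = 1.54e-05, and 0.0273 with averaging). These were the 2 genes whose call held under each of the alternatives and left-out arrays tried. The size of the SOX9 rise was smaller with normexp background, at 0.72, where that of ICAM1 was 1.31. After the rise SOX9 in Huh1 was still below every Huh7 array.

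KRT19 reached 4.90, 4.87 and 4.89 under DSF, above control array 1 at 4.04 and further above arrays 2 and 3 at 2.39 and 2.29. The log2 difference of 1.98 ± 0.40 (adjusted p = 0.00104) was 1.70 with averaging, where it did not pass (adjusted p = 0.206). KRT7 reached 5.73, 5.72 and 5.80 from 5.46, 4.82 and 4.66, and control array 1 was again the closest to DSF. Its log2 difference was 0.77 ± 0.24 (adjusted p = 0.0166), and the call was lost with averaging (0.401) and without control array 2 or 3. PROM1 stayed near the bottom of its range, at -4.43, -4.40 and -4.07 against -4.65, -5.09 and -4.76. Its difference of 0.53 ± 0.16 (adjusted p = 0.0162) fell to 0.12 with normexp background and passed in 6 of 12 alternatives. CD44 did not pass (-0.14, 95% interval -0.54 to 0.26).

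In Huh7 the same treatment lowered ANPEP and raised CD44, and the other changes were small. ANPEP fell 2.41-fold. CD44 has no fold here, since 2 of the 3 control arrays were not well above background. EPCAM, PROM1 and SOX9 fell by 1.35-fold to 1.41-fold, and CD24 rose 1.23-fold. Of 9 genes tested, 2 were higher and 4 lower, where 27.3% of all probes were called higher and 19.4% lower. The median log2 difference was -0.42, against 0.08 over all probes tested. With averaging, which leaves 2 DSF units against 1 control unit, CD44 alone passed (1 of 9, with 8.57% of all probes called). With the slide as a block ANPEP and CD44 passed.

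ANPEP went from -0.03, -0.11 and -0.08 to -1.30, -1.38 and -1.34. The fall was -1.27 ± 0.20 on the log2 scale (adjusted p = 1.40e-04), against -1.31 in Huh1, and DSF array 1 on the control slide showed it as the other 2 did. Its adjusted p was 0.0874 with averaging and 0.00976 with the slide as a block. CD44 went from -6.14, -6.20 and -6.28 to -5.07, -4.39 and -4.38, so array 1 rose less than the arrays of slide 3. The log2 difference was 1.59 ± 0.18 (adjusted p = 9.79e-06, and 0.0435 with averaging), 1.14 with the slide as a block and 0.41 with normexp background. All 3 DSF arrays and 1 of 3 control arrays were well above background, and every Huh7 array stayed below every Huh1 array.

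EPCAM in Huh7 went from 5.47, 5.48 and 5.53 to 5.03, 5.00 and 4.97. The log2 difference was -0.50 ± 0.17 (adjusted p = 0.0294), with an adjusted p of 0.442 with averaging and 0.223 with the slide as a block. PROM1 went from 1.72, 1.71 and 1.69 to 1.29, 1.18 and 1.22, by -0.48 ± 0.16 (adjusted p = 0.0271, then 0.337 and 0.207 in the same 2 fits). Both genes fell on DSF array 1 as on arrays 2 and 3, and neither overlapped with control. SOX9 did not fall alike on the 3 arrays, at 1.01, 0.44 and 0.58 from 1.09, 1.13 and 1.12. Its log2 difference of -0.44 ± 0.15 (adjusted p = 0.0289) was -0.10 with the slide as a block. Leaving out any 1 of the 3 control arrays or DSF array 2 or 3 ended the calls of EPCAM, PROM1 and SOX9, and CD24 (0.29 ± 0.11, adjusted p = 0.0426) lost its call without any 1 of the 6 arrays.

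KRT19 was at 5.82, 5.78 and 5.77 after DSF and at 5.80, 5.78 and 5.92 before, a log2 difference of -0.04 with a 95% interval of -0.91 to 0.82. KRT7 split by slide, at 1.95 on DSF array 1 and at 2.96 and 2.94 on arrays 2 and 3, against 2.35, 2.29 and 2.15. Its log2 difference was 0.35 (95% interval -0.16 to 0.86), and -0.31 with the slide as a block. ICAM1 was at 2.13, 1.96 and 2.02 against 2.43, 2.46 and 2.47, a log2 difference of -0.42 (95% interval -0.79 to -0.04) that did not pass (adjusted p = 0.0641).

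Whether DSF acted differently in the 2 lines was tested as the effect in Huh7 minus the effect in Huh1. KRT19, ICAM1, SOX9 and PROM1 had lower differences in Huh7, and CD44 and CD24 had higher ones. That is 2 higher and 4 lower of 9 genes tested, where 21.1% of all probes were called higher and 19.2% lower. With averaging 0 of 9 passed, with 3.72% of all probes called, and 0.0623 for SOX9 and 0.0801 for ICAM1 were the lowest adjusted p. ICAM1 differed by -1.75 ± 0.25 on the log2 scale (adjusted p = 8.26e-05) and SOX9 by -1.66 ± 0.21 (3.80e-05). CD44 differed by 1.73 ± 0.26 (1.43e-04), and by 0.53 with normexp background. With the slide as a block KRT19 (adjusted p = 0.0788) and PROM1 (0.0504) lost their calls and KRT7 gained one (-1.06, adjusted p = 0.0222). For ANPEP the difference between lines was 0.04 with a 95% interval of -0.56 to 0.65, and for EPCAM 0.16 with an interval of -0.36 to 0.69.

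**Figure D3:**
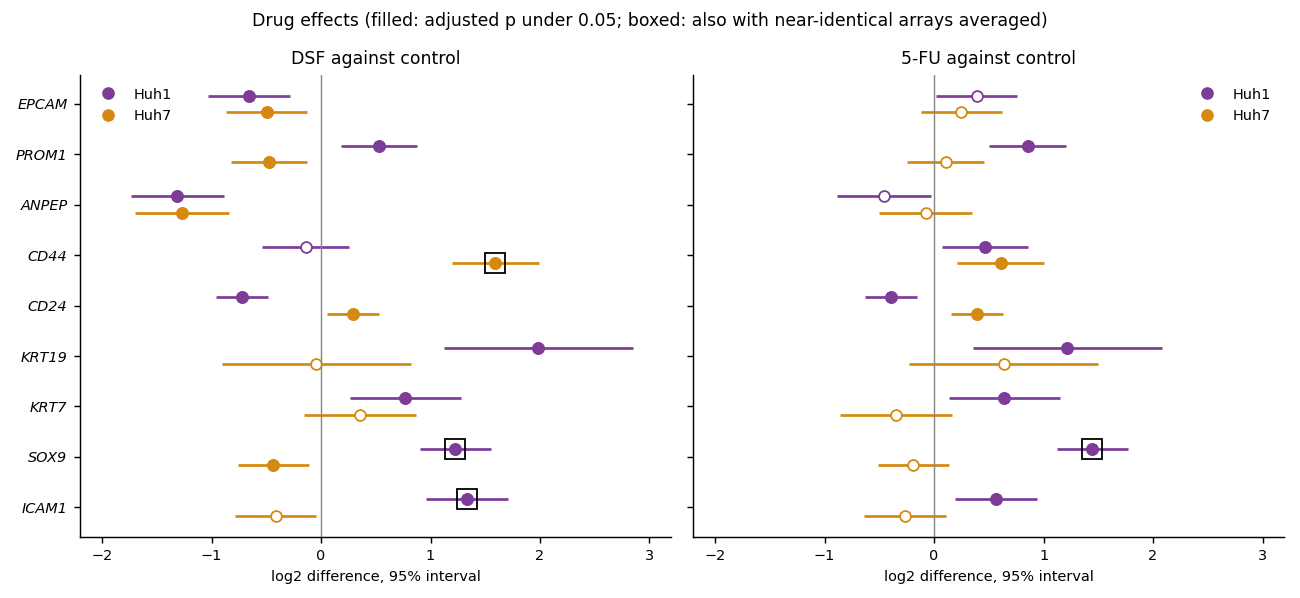
Log2 difference from control with its 95% interval (x axis) for the 9 genes tested (y axis), after DSF (left) and 5-FU (right), in Huh1 (purple) and Huh7 (orange). Filled points had an adjusted p under 0.05 with all 18 arrays, and boxed points also passed with near-identical arrays averaged: SOX9 and ICAM1 after DSF in Huh1, CD44 after DSF in Huh7 and SOX9 after 5-FU in Huh1.

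5-FU, an antimetabolite of thymidylate synthesis, served as the second drug. The 5-FU arrays had a higher 75th percentile relative to the labelled spike-in controls than the controls had, the shift being 0.83 on the log2 scale in Huh1 and 0.99 in Huh7, against 0.13 and -0.17 for DSF. The 5-FU changes given here are therefore relative to the bulk of probes, and scaling on the spike-ins adds that shift to each of them.

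In Huh1, SOX9, KRT19, PROM1, KRT7, ICAM1 and CD44 rose with 5-FU and CD24 fell. SOX9 rose 2.72-fold and KRT19 2.33-fold. Of 9 genes tested, 6 were higher and 1 lower, where 22.2% of all probes were called higher and 26.0% lower. The median log2 difference was 0.57, against -0.03 over all probes tested. With averaging SOX9 alone passed (1 of 9, with 20.8% of all probes called).

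SOX9 was at -2.79, -2.40 and -2.66 after 5-FU, every array above every control array. The rise was 1.44 ± 0.15 on the log2 scale (adjusted p = 3.49e-06, and 0.00681 with averaging), and 0.79 with normexp background. PROM1 was at -4.36, -3.68 and -3.89, above the control values of -4.65, -5.09 and -4.76. Its log2 difference of 0.85 ± 0.16 (adjusted p = 6.00e-04) did not pass with averaging (0.0591) and was 0.10 with normexp background. KRT19, at 3.61, 4.39 and 4.37, overlapped with control because control array 1 was at 4.04, and its log2 difference was 1.22 ± 0.40 (adjusted p = 0.0219, and 0.390 with averaging). For KRT19 and KRT7 the call was lost without control array 2 or 3 or without 5-FU array 2 or 3, and for ICAM1 without control array 1 or 5-FU array 2 or 3.

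CD24 was at 5.26, 5.21 and 5.27, below its control arrays by 0.40 ± 0.11 on the log2 scale (adjusted p = 0.00890), and with spike-in scaling it was higher by 0.43. CD44, at 0.77, 1.20 and 1.18, barely passed (0.47 ± 0.18, adjusted p = 0.0499), and leaving out control array 1 or 2 or 5-FU array 2 or 3 ended the call. EPCAM was at 3.31, 2.87 and 2.86, above its control arrays but without passing (0.39, 95% interval 0.02 to 0.76, adjusted p = 0.0764). ANPEP was at 1.56, 0.65 and 0.69 and so straddled its control arrays, with array 1 apart (-0.46, 95% interval -0.88 to -0.03).

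In Huh7 after 5-FU, CD24 rose 1.31-fold. CD44 passed the test on signals near background, and the other 7 genes tested did not pass. Of 9 genes, 2 were higher and 0 lower, where 27.3% of all probes were called higher and 29.7% lower. The median log2 difference was 0.10, against -0.05 over all probes tested. With averaging, which leaves the 3 5-FU arrays apart against 1 control unit, 0 of 9 passed, with 29.8% of all probes called. With spike-in scaling all 9 were called higher than control, as were 22962 of the 29894 probes tested.

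CD44 was at -5.81, -5.51 and -5.47 after 5-FU, of which array 1 was not well above background, nor were 2 of the 3 control arrays. The log2 difference of 0.61 ± 0.18 (adjusted p = 0.0113) was -0.17 with normexp background (adjusted p = 0.228). CD24 was at 5.97, 5.40 and 5.52, all above control near 5.24 ± 0.01 (SD, n = 3), by 0.39 ± 0.11 on the log2 scale (adjusted p = 0.00733). EPCAM was at 6.15, 5.84 and 5.23 and KRT19 at 7.13, 6.54 and 5.74. In both genes array 3 lay under the control mean. EPCAM spread over more in this group (SD 0.47) than in the other 5, while KRT19 (SD 0.70) spread over less than in Huh1 control (SD 0.98). Their log2 differences were 0.25 for EPCAM (95% interval -0.12 to 0.62) and 0.64 for KRT19 (95% interval -0.227 to 1.498).

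For PROM1, ANPEP and SOX9 the differences after 5-FU in Huh7 were 0.10 (95% interval -0.24 to 0.45), -0.08 (95% interval -0.50 to 0.35) and -0.19 (95% interval -0.51 to 0.14). The line difference of the 5-FU effect passed for SOX9, KRT7, ICAM1, PROM1 and CD24, 1 higher and 4 lower in Huh7 of 9 tested, where 18.8% of all probes were called higher and 17.8% lower. SOX9 differed by -1.63 ± 0.21 on the log2 scale (adjusted p = 4.69e-05), and it was the only one of the 9 that passed with averaging (0.0320, with 7.09% of all probes called).

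DSF was then set against 5-FU within each line, at the 1 dose and time given for each drug. Their doses differ, so the values compare these treatments and not the compounds at equal dose. EPCAM and ANPEP were lower after DSF than after 5-FU in both lines. In Huh1 the log2 differences were -1.05 ± 0.17 for EPCAM (adjusted p = 1.77e-04) and -0.85 ± 0.20 for ANPEP (0.00262). CD44 and CD24 were also lower after DSF in Huh1, and ICAM1 was higher by 0.76 ± 0.17. The ICAM1 difference was 0.07 with spike-in scaling (adjusted p = 0.759). CD24 lost its call with the slide as a block (0.0705) and without 5-FU array 1 or 3 or DSF array 2 or 3. In all, 1 of 9 genes was higher and 4 lower, where 28.7% of all probes were called higher and 20.6% lower. With averaging 0 of 9 passed, with 12.8% of all probes called, EPCAM having an adjusted p of 0.0797.

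In Huh7 the log2 differences were -0.74 ± 0.17 for EPCAM (adjusted p = 0.00189), -1.19 ± 0.20 for ANPEP (1.32e-04) and -0.58 ± 0.16 for PROM1 (0.00676). CD44 was higher after DSF by 0.98 ± 0.18 and KRT7 by 0.70 ± 0.24. With the slide as a block KRT7 was 0.04 (adjusted p = 0.911) and CD44 0.53 (0.0596), neither passing, and PROM1 did not pass either (0.0848). The KRT7 values on DSF arrays 2 and 3 of slide 3 were 2.96 and 2.94, against 1.95 on DSF array 1. In all, 2 of 9 genes were higher and 3 lower, where 35.6% of all probes were called higher and 25.0% lower. With averaging ANPEP (adjusted p = 0.0137) and CD44 (0.0297) passed, 2 of 9, with 42.7% of all probes called. The values of CD44 and KRT7 turned negative with spike-in scaling, at -0.18 and -0.46. ANPEP held its call in Huh7 under all 12 alternatives and each left-out array. The 3 comparisons within a line (each drug against control, and DSF against 5-FU) share arrays pairwise.

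The order of the 6 groups differed from gene to gene. EPCAM and PROM1 were highest in Huh7 5-FU, which overlapped with Huh7 control, followed by Huh7 DSF. For EPCAM the order then ran Huh1 5-FU, Huh1 control and Huh1 DSF with no overlap between neighbours. ANPEP was highest in Huh1 control, which overlapped with Huh1 5-FU, and lowest in Huh7 DSF, and the 2 DSF groups were each the lowest of their line. SOX9 was highest in Huh7 control and lowest in Huh1 control, and the 2 drug groups overlapped within each line. ICAM1 followed the same order for its extremes, with the 3 Huh7 groups overlapping in sequence. CD24 covered the narrowest range of the 9 genes tested, 4.89 to 5.97.

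For EPCAM, PROM1 and ANPEP the 3 genes nearest in pattern were found by the root mean square difference of the 6 group means, each gene centred on its own mean, over 12721 genes well above background on all 18 arrays. Among those nearest to EPCAM were RBPMS2 (0.13 on the log2 scale) and FANCL (0.20). RBPMS2 had group means of -2.55 in Huh1 control, -3.22 in Huh1 DSF, 0.20 in Huh7 control and -0.02 in Huh7 DSF. Nearest to PROM1 were FKBP10 (0.20), TCF7L1 (0.27), a Wnt pathway transcription factor, and PNMA2 (0.31). Nearest to ANPEP were PLXNC1 (0.17), TCEA3 (0.21) and GBA3 (0.21), a cytosolic beta-glucosidase of liver. GBA3 had group means of 1.45, 1.28 and -0.08 in Huh1 control, 5-FU and DSF and of 0.10, 0.05 and -0.85 in Huh7.

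A group of 3 further lists places the markers among related genes, each gene by its brightest probe. The called counts include NCAM1 after DSF in Huh7, CFTR after 5-FU in Huh1 and HAS2 after DSF in Huh1, which were well above background on no array of either group, and 4 further such cases given below. The first holds 24 other tumor-initiating and stem cell markers, of which 21 were tested (CD34, KIT and NANOG were not). After DSF in Huh1, 2 rose and 8 fell (3 called with averaging), with a median log2 difference of -0.16. Of all probes 23.9% were called higher and 20.3% lower (10.2% called with averaging). SALL4, a fetal liver transcription factor, rose most at 1.90 ± 0.14 (adjusted p = 1.16e-07), from -4.46 to -2.56 in group means. These SALL4 levels are low, and values with normexp background are not given for the lists. GPC3, the oncofetal glypican of HCC, fell most at -1.37 ± 0.14 (3.73e-06). After DSF in Huh7, 4 were called higher and 6 lower (2 called with averaging), against 27.3% and 19.4% of all probes (8.57% with averaging). LGR5, a Wnt-linked stem cell receptor, rose from -4.78 to -3.23 in group means (adjusted p = 6.30e-06), and CXCR4, a chemokine receptor, fell from -0.27 to -4.42 (7.94e-09). SALL4, GPC3, LGR5 and CXCR4 all passed with averaging in these comparisons.

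After 5-FU in Huh1, 4 of the 21 were called higher and 6 lower (3 called with averaging), against 22.2% and 26.0% of all probes (20.8% with averaging). SALL4 again rose most, by 1.27 ± 0.14 (adjusted p = 4.66e-06, and 0.00996 with averaging). Of the 6 called lower, SOX2, CXCR4 and LGR5 were well above background on no array of either group and so have no fold. In Huh7, 8 rose and 8 fell (5 called with averaging), against 27.3% and 29.7% of all probes (29.8% with averaging). LGR5 rose by 1.502 ± 0.17 (adjusted p = 3.67e-06, and 0.00138 with averaging). MYC fell by 1.91 on the log2 scale (1.90e-08, and 0.00224 with averaging). The medians of the list were -0.09 after DSF in Huh7, -0.05 after 5-FU in Huh1 and -0.05 after 5-FU in Huh7.

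The second list holds 20 genes of the biliary and progenitor lineage, of which 19 were tested. After DSF, 2 rose and 6 fell in Huh1 (1 called with averaging), and 5 rose and 5 fell in Huh7 (2 called with averaging). The shares of all probes called higher and lower were 23.9% and 20.3% in Huh1 (10.2% called with averaging) and 27.3% and 19.4% in Huh7 (8.57%). In Huh1 the extremes were MUC1, a membrane mucin (0.61 ± 0.12, adjusted p = 6.78e-04), and ONECUT2, a hepatobiliary transcription factor (-0.94 ± 0.17, 4.58e-04), and neither passed with averaging (0.146 and 0.145). In Huh7 they were SPP1, the secreted protein osteopontin, which rose from -0.87 to 2.61 in group means (adjusted p = 5.94e-09, and 0.00341 with averaging), and PIGR, the polymeric immunoglobulin receptor, which fell by 1.89 on the log2 scale (2.74e-05, and 0.0537 with averaging). Huh1 had a list median of -0.23 on the log2 scale, and Huh7 one of -0.12.

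After 5-FU, 5 rose and 5 fell in Huh1 (3 called with averaging), and 10 rose and 3 fell in Huh7 (4 called with averaging), with medians of -0.14 and 0.30. Of all probes 22.2% were called higher and 26.0% lower in Huh1 (20.8% called with averaging), and 27.3% and 29.7% in Huh7 (29.8%). CDH6, a cadherin of kidney and bile duct, rose most in Huh1 by 2.01 ± 0.34 (adjusted p = 2.21e-04, and 0.0554 with averaging). KRT23, a keratin, rose most in Huh7 from -0.01 to 3.53 (1.27e-04, and 0.0333 with averaging). AQP1, a water channel of bile duct and vessel cells, had the largest fall in both lines, -2.53 ± 0.32 in Huh1 (2.02e-05) and -1.60 ± 0.32 in Huh7 (6.50e-04), and the fall in Huh7 did not pass with averaging (0.0772).

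The third list holds 18 binding partners, cleaving enzymes and splicing factors of the markers, all tested. After DSF, 6 rose and 4 fell in Huh1 (1 called with averaging), and 5 rose and 5 fell in Huh7 (3 called with averaging). These counts stand against 23.9% and 20.3% of all probes in Huh1 (10.2% with averaging) and 27.3% and 19.4% in Huh7 (8.57%). FHL2, a LIM-domain protein that binds the cleaved EpCAM tail, rose most in both lines, from 1.93 to 3.76 in Huh1 (adjusted p = 1.46e-08) and from -0.996 to 1.25 in Huh7 (2.07e-09). The largest falls were those of ESRP2, an epithelial splicing factor (-0.59 ± 0.15, 0.00488, and 0.286 with averaging), in Huh1 and of CD9, a tetraspanin (-1.24 ± 0.09, 1.54e-07), in Huh7. The calls of FHL2 and CD9 held with averaging (0.00427 and 0.00219 for FHL2 in Huh1 and Huh7, 0.0141 for CD9). Huh1 had a list median of 0.08 on the log2 scale, and Huh7 one of 0.10.

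After 5-FU, 5 rose and 4 fell in Huh1 (5 called with averaging), and 8 rose and 4 fell in Huh7 (2 called with averaging), with medians of 0.00 and 0.16. Among all probes the shares were 22.2% higher and 26.0% lower in Huh1 (20.8% with averaging) and 27.3% and 29.7% in Huh7 (29.8%). FHL2 rose most in Huh1, by 1.44 ± 0.11 on the log2 scale (adjusted p = 1.82e-07). HAS2, a hyaluronan synthase, rose most in Huh7, from -6.48 to -4.46 in group means (0.00178, and 0.0894 with averaging). It has no fold, since 0 of 3 control arrays were well above background. MSN, the membrane linker moesin that binds the CD44 tail, fell most in Huh1 by 0.76 on the log2 scale (0.00433), and was 0.06 higher with spike-in scaling. In Huh7 MSN also had the largest called fall, but was well above background on no control or 5-FU array and so has no fold.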

How the data were processed

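The 18 one-color Agilent 8x60K arrays of EpCAM+ Huh1 and Huh7 cells were grouped by their labels, 3 per group. The authors deposited spot intensity after background subtraction (Feature Extraction 10.7.1.1 in the files and the submitters' processing notes, another version in the methods), and a table of intensity normalized to each array's 75th percentile. The genome build behind the probe design was not used here. Per the file headers, other columns are flags, scored as yes or no, for outlier spots and signal well above background, set by the scanner software from the authors' scans.

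The log2 processed signal of a probe was the mean of its unflagged spots, and the log2 75th percentile of the array was subtracted. Flagged spots numbered 316 to 447 per array, 0 spots were saturated, and 78 of 42405 probes had no usable spot on some array. The number of arrays limits the precision. Probes that every array of some group placed well above background (29894) entered 1 limma fit of 6 group means, with Benjamini-Hochberg adjustment over all of them and 0.05 as the threshold. In simulated data for DSF against control in Huh1 the fit called 39% of probes changed by 0.5 and 71% of those changed by 1 on the log2 scale. The simulated noise was independent for each array and few probes were changed, so these shares do not cover near-identical arrays or the fit with averaging. Genes were named through RefSeq accessions (GRCh38.p14 table, 25736 probes), and a listed gene is represented by its brightest probe. The members, the 3 lists and the alternatives were chosen with earlier results of these data known. Genes named are the 10 markers, the called list gene with the largest rise and fall in each drug comparison, and the 3 nearest patterns of EPCAM, PROM1 and ANPEP, of which 1 is not reported here. Markers of other cell types were described only. Alternatives were other scalings (array median, quantile, 6 bright spike-in probes), normexp background with an offset of 50, the authors' table, no filter on dim probes, slide or replicate number as a block, the study's selection thresholds, groups compared alone and each array left out. The normexp step used the median spot signal. Added after seeing the data were averaging of near-identical arrays (ratio under 1.5), leaving out the slide of 2 arrays, and the main slide of each line alone. The pairs of arrays with the same number did not deviate together. Fits were run in limma 3.58.1 under R 4.3.3. Tables and figures used pandas 2.3.3, numpy 2.4.6 and matplotlib 3.10.9 under Python 3.11.15.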

Additional observations from a re-analysis of the deposited data

Results flagged for a closer look

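The effect of DSF differed between Huh7 and Huh1, by the interaction term of limma with 18 arrays, for 6 of the 9 markers tested, and that of 5-FU for 5 of 9. Of all probes, 21.1% were called higher and 19.2% lower in Huh7 for DSF, and 18.8% and 17.8% for 5-FU. For DSF, the Huh7 effect minus the Huh1 effect was -2.03 for KRT19, -1.75 for ICAM1, -1.66 for SOX9, -1.005 for PROM1, 1.73 for CD44 and 1.02 for CD24 on the log2 scale. For 5-FU it was -1.63 for SOX9, -0.99 for KRT7, -0.83 for ICAM1, -0.75 for PROM1 and 0.79 for CD24. Beside them stands the spread within groups. Huh1 control array 1 read 4.04 for KRT19 where arrays 2 and 3 read 2.39 and 2.29, and with near-identical arrays averaged the KRT19 adjusted p was 0.405. With averaging only SOX9 after 5-FU passed of these 11 differences (adjusted p = 0.0320). CD44 in Huh7 lies near background, and its DSF difference between lines was 0.53 with normexp background, where that of SOX9 was -1.07 for DSF and -0.97 for 5-FU and that of PROM1 -0.54 and 0.0085. With the slide as a block the DSF differences of KRT19 (adjusted p = 0.0788) and PROM1 (0.0504) did not pass, and that of KRT7 did (-1.06, adjusted p = 0.0222). Groups of 3 arrays are too small for a test of single outlying arrays.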

How the results depend on the processing

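With near-identical arrays averaged, the counts of markers called fell from 8 to 2 for DSF in Huh1, from 6 to 1 for DSF in Huh7, from 7 to 1 for 5-FU in Huh1, from 2 to 0 for 5-FU in Huh7, from 5 to 0 and from 5 to 2 for DSF against 5-FU in Huh1 and Huh7, and from 6 to 0 and from 5 to 1 for the line differences of DSF and 5-FU. The calls among all 29894 probes fell as well. They went from 13220 to 3046 and from 13975 to 2563 for DSF in Huh1 and Huh7. For 5-FU they went from 14403 to 6215 and from 17063 to 8907. For DSF against 5-FU they went from 14713 to 3813 and from 18096 to 12761. For the line differences of DSF and 5-FU they went from 12051 to 1111 and from 10935 to 2119. For DSF in Huh7 the count was 2 with the slide as a block, without the slide of 2 arrays, with the main slide of each line alone and under the study's selection thresholds, and 2 to 6 without 1 array. Probes called there were 8548, 8191, 7795 and 12970, and 11274 to 15004 without 1 array. For DSF against 5-FU in Huh7 the count of markers was 2, 2 and 1 in the first 3 of these settings. There 13218, 12915 and 12587 probes were called. Groups compared alone gave 3 for 5-FU in Huh1 (12582 probes), where leaving out 1 array gave 3 to 7 (12323 to 14718 probes). For 5-FU in Huh7 the count was 4 with quantile normalization, 9 with spike-in scaling and 1 with normexp background. Probes called in these 3 settings were 17199, 23997 and 20583. The line difference of 5-FU had 2 with spike-in scaling and 3 to 5 without 1 array, and DSF against 5-FU in Huh1 had 3 to 5 without 1 array. The count for the 2 controls stayed at 8 or 9 throughout.

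Values turned sign mostly where they had not passed, but some that had passed turned as well. Those were CD44 (0.98) and KRT7 (0.70) in DSF against 5-FU in Huh7, and PROM1 (-0.75) in the line difference of 5-FU. CD44 after 5-FU in Huh7 (0.61) and CD24 after 5-FU in Huh1 (-0.40) were the others. With spike-in scaling the log2 differences after 5-FU were 0.37 for ANPEP in Huh1, 0.43 for CD24 in Huh1, 0.91 for ANPEP, 0.72 for ICAM1, 0.64 for KRT7 and 0.80 for SOX9 in Huh7. DSF against 5-FU then gave -0.56 for KRT7 in Huh1 and -0.18 for CD44 and -0.46 for KRT7 in Huh7, and the line differences were -0.26 for ANPEP and -0.15 for EPCAM (DSF) and 0.017 for EPCAM (5-FU). Quantile normalization gave -0.0056 for ANPEP and 0.15 for EPCAM in the line differences of DSF and 5-FU and -0.077 for KRT7 in DSF against 5-FU in Huh1, where array median scaling gave -0.022. Normexp background gave -0.17 for CD44 after 5-FU in Huh7, -0.64 for CD44 and 0.0085 for PROM1 in the line difference of 5-FU, 0.020 for KRT19 after DSF in Huh7 and 0.017 for PROM1 in DSF against 5-FU in Huh1. The 3 slide settings gave -0.31 for KRT7 after DSF in Huh7 and 0.090 for SOX9 in DSF against 5-FU in Huh7. Without 1 array, ANPEP after 5-FU in Huh7 ranged from -0.20 to 0.12, CD24 in DSF against 5-FU in Huh7 from -0.21 to 0.068 and EPCAM in the line difference of 5-FU from -0.35 to 0.11. The cause was not tested in these cases.

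With the replicate number as a block, 77 of 81 gene values kept direction and side of the threshold, and KRT7 after 5-FU in Huh1 had an adjusted p of 0.0566; the numbers did not pair the arrays, with correlations of deviations from -0.093 to 0.009. The authors' table kept 81 of 81. The mean over probes of a gene was not run, since each marker has 1 probe. Signal over background limits CD44 in Huh7 and THY1.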
